A study of Homo sapiens with 6 samples.

Results

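The 33 genes described here encode the protein folding machinery of the endoplasmic reticulum (ER) and the regulators of the unfolded protein response. They were taken from the deposited table by gene symbol. The rule itself uses no measured value, but the set was drawn up with earlier results of these data known. All 33 were found among its 26364 genes, and all 33 passed the filter of a mean of at least 10 normalized counts. By role they comprise 12 chaperones and co-chaperones, 4 disulfide isomerases, 8 genes of ER-associated degradation, 5 of the translocon and ER export, and 4 sensors and transcription factors.

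RNA-seq was done on Calu3, an epithelial cell line from a human lung adenocarcinoma. The cells were transfected, using RNAiMax and 20 nmol of siRNA as labelled, with a negative control siRNA (siNC, 3 libraries) or an siRNA against BRD8 (BRD8 KD, 3 libraries). BRD8 encodes a bromodomain subunit of the TIP60 histone acetyltransferase complex, and the comparison asks which transcripts differ after its knockdown in lung epithelial cells. All 6 libraries come from 1 cell line, and 1 reagent was used against BRD8, so effects of that reagent apart from BRD8 cannot be told apart from those of BRD8 loss. The labels do not say whether replicates were separate cultures, and the p-values therefore reflect the spread among 6 libraries, part or all of which may be technical.

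Secreted and membrane proteins enter the ER through the Sec61 channel, where chaperones and disulfide isomerases fold them and a degradation pathway returns failed molecules to the cytosol. When unfolded proteins accumulate, the sensors IRE1 (ERN1), ATF6 and PERK (EIF2AK3) signal to the nucleus. Spliced XBP1 and cleaved ATF6 then raise transcription of folding and degradation genes, partly through promoter sequences named ERSE, ERSE-II and UPRE. Both activations occur after transcription, by splicing and by cleavage, and gene-level counts do not read either. Airway epithelium secretes mucins and defence proteins and has a large load of this kind.

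The knockdown was seen in each BRD8 siRNA library. BRD8 stood at 2751, 2928 and 3067 normalized counts in control libraries 1 to 3 and at 1312, 1084 and 1156 in BRD8 libraries 1 to 3. The groups did not overlap, with a log2 fold change of -1.30 (SE 0.0904, limma adjusted p = 1.13e-04). The libraries held 33640814 to 37896467 reads assigned to genes. Of 8 airway epithelial markers all were measured, from 6906 counts for MUC1 upward. At a limma adjusted p under 0.05, 5 rose (62.5%), among them CFTR and E-cadherin (CDH1), where 10.1% of all genes tested rose. The extraction protocol names HBE cells and not Calu3, and the sample titles were followed. Among markers of other cell types, those apart from CD68 and COL1A1 reached at most 16.4 counts in any library. PTPRC, which defines leukocytes, lay between 2.03 and 5.40 counts in control and between 0 and 3.12 in BRD8 libraries, and the collagen gene COL1A2 was at 0 in all 6. CD68 rose by 0.38 on the log2 scale. The leukocyte list of 5 genes summed to 1339 to 1708 counts in control and 1786 to 2089 in BRD8 libraries, 1 of its 2 tested genes rising. The list of 5 fibroblast and muscle genes summed to 199 to 221 and 175 to 191, with no call, and that of 4 endothelial genes to 4.32 to 11.2 and 11.4 to 13.5, with none tested. The part of these markers in the results was not tested. In such bulk RNA, a change in all cells and a change in the share of some cells cannot be told apart.

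The promoter sequences are shown first because the regulators of this pathway are known to act through them. RefSeq promoter windows of 250 bases before to 50 bases after each start site (GRCh38.p14) were found for 29 of the 33 genes, all but PDIA3, DERL1, DERL3 and SEC24D. Both strands were searched for ERSE (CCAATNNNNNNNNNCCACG), ERSE-II (ATTGGNCCACG) and UPRE (TGACGTGG). ERSE and ERSE-II end in the same CCACG, and UPRE can overlap ERSE-II on the other strand. An exact ERSE was found in 27 of 35116 windows of all genes (0.0769%), belonging to 25 of 27305 genes, and 7 of those 25 were among these 29. They were HSPA5, HSP90B1, CALR, CANX, CRELD2, PDIA6 and XBP1. ERSE-II was found in 19 windows (0.0541%), of HYOU1, SDF2L1 and HERPUD1 among others. UPRE was found in 256 (0.729%), of HYOU1 and SSR3 in this set. A match is a description of these letters and no match says only that they are absent from the window. These genes are known for such elements, so the high share is background rather than a result of the RNA measurement.

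The stretches below run 5′ to 3′ on the strand of the gene, end before the start site, and carry the matches in capitals, with 20 bases on either side. Negative positions count bases before the start site. The first 4 belong to the genes with an ERSE or ERSE-II match that rose. They are HSPA5 (-86 to -28, chr9:125241371-125241429, minus strand), CANX (-171 to -113, chr5:179698758-179698816, plus strand), HERPUD1 (-137 to -87, chr16:56932005-56932055, plus strand) and HYOU1 (-208 to -49, chr11:119057254-119057413, minus strand). In HYOU1 the upstream run of capitals holds a UPRE and an ERSE-II that overlap.
HSPA5: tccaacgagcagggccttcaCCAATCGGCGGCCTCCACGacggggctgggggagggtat
CANX: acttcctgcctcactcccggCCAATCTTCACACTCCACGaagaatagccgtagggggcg
HERPUD1: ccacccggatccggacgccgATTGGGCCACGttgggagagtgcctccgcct
HYOU1: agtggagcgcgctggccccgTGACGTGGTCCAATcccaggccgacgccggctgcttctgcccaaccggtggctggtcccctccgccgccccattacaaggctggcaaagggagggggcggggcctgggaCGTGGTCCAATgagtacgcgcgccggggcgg

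The next 3 are from genes whose matches are as exact but whose RNA was not called changed. They are HSP90B1, with 2 ERSE matches on opposite strands (-214 to -51, chr12:103930196-103930359, plus strand), XBP1 (-72 to -14, chr22:28800583-28800641, minus strand) and CALR (-245 to -187, chr19:12938364-12938422, plus strand), whose match is on the opposite strand.
HSP90B1: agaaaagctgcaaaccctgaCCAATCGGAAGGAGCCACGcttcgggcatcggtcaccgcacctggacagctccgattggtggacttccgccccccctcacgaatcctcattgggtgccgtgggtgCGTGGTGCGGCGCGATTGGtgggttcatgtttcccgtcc
XBP1: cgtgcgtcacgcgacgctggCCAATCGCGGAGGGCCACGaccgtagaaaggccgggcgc
CALR: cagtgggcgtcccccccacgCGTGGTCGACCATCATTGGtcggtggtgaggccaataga

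**Figure D1:**
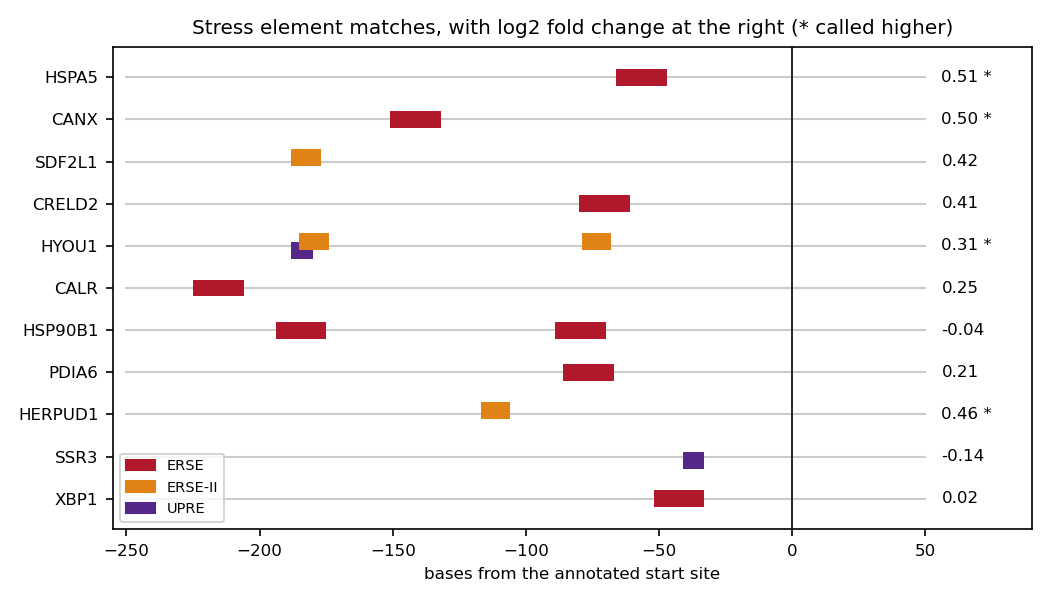
Positions of exact ERSE, ERSE-II and UPRE matches, in bases from the annotated start site, in the promoter windows of the 11 genes that hold one; numbers at the right are log2 fold changes of BRD8 over control siRNA and stars mark genes called higher. Genes with matches range from a log2 fold change of 0.51 for HSPA5 to -0.14 for SSR3. For CANX, whose match lies in the windows of several start sites, only 1 window is drawn.

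Of the 33 genes, 11 rose after BRD8 siRNA (33.3%) and 1 fell (3.03%), at a limma adjusted p under 0.05 over all 15354 genes tested. Over all those genes 10.1% rose and 8.93% fell. The median log2 fold change was 0.24 in the set and -0.01 over all genes tested, and 24 of the 33 lay above 0, against 48.0% of all genes. The BRD8 libraries lay wholly above the control libraries for 17 of the 33 and wholly below for 2, where the shares over all genes were 18.9% and 17.9%. The rises were from 0.27 to 0.51 on the log2 scale. Chaperones and isomerases, which are 16 of the 33, made up 9 of the 11. The difference between roles was not tested. No sensor or transcription factor of the set was called. As CPM, in which the reads of each library are scaled to one total, the 33 genes together took 9399, 9456 and 9191 in control libraries 1 to 3 and 10815, 10993 and 10964 in BRD8 libraries 1 to 3, an increase of 16.9% with no overlap. By role the summed level was 20.7% higher for chaperones, 23.6% higher for isomerases and 7.18% higher for translocon and export genes. For degradation genes it was 657 ± 41.9 CPM in control and 643 ± 22.2 in BRD8 libraries (SD, n = 3 each). For sensors and factors it was 331 ± 13.5 and 334 ± 9.87, so that neither sum moved beyond its spread. Such sums weigh abundant genes most. Among chaperones CANX went from 53881 to 76296 mean normalized counts and HSPA5 from 24579 to 35013, while HSP90B1 went from 60878.5 to 58978. Of the 12 chaperones, 6 were not called. Among isomerases the most abundant was P4HB, at 29762 and 37986 mean normalized counts.

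**Figure D2:**
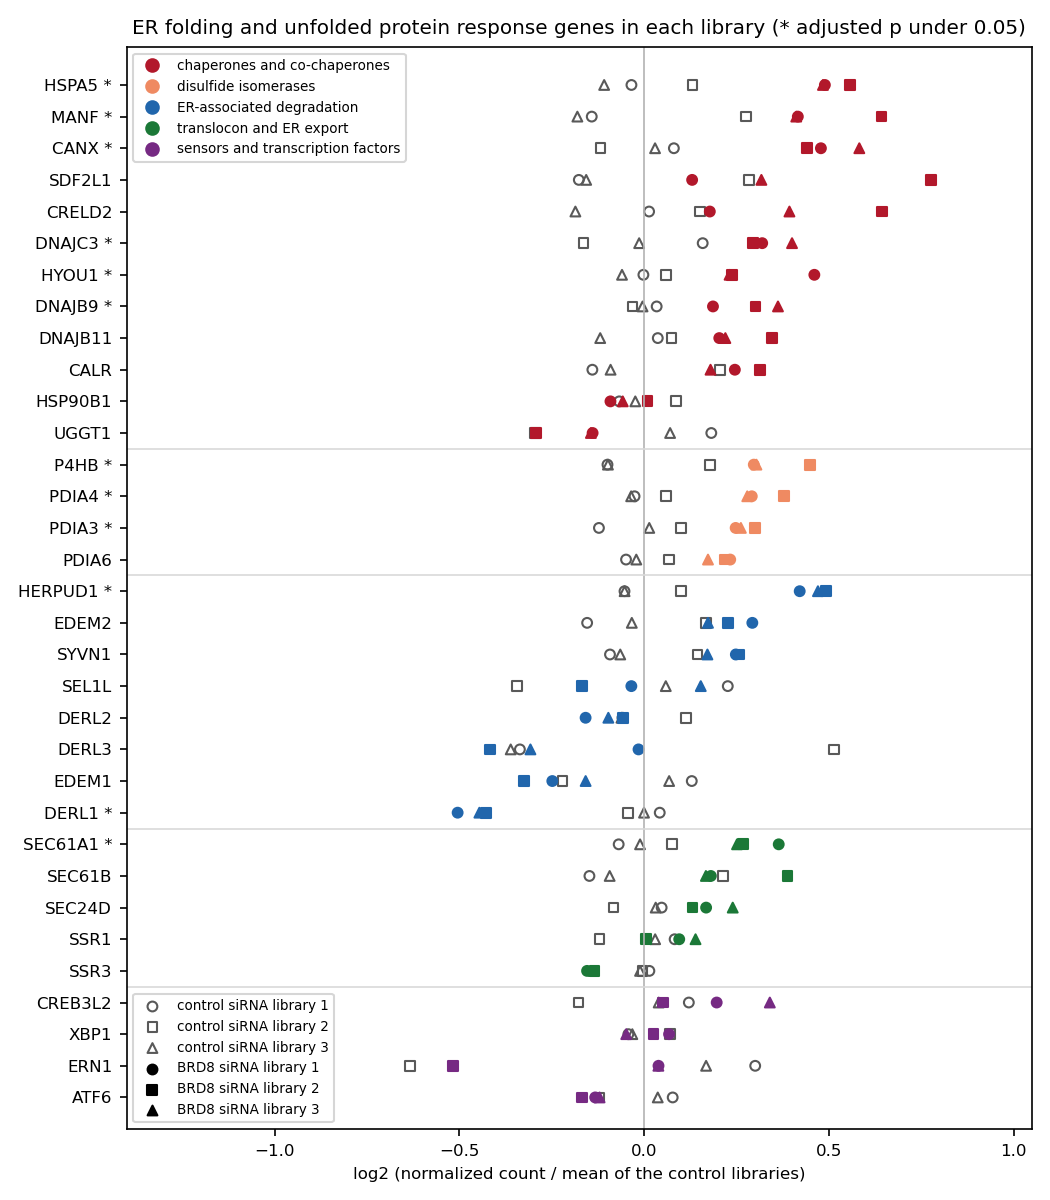
Normalized count of each of the 33 genes in each library, as log2 of the ratio to the mean of the 3 control libraries; open symbols are control libraries, filled symbols BRD8 siRNA libraries coloured by role, and stars mark limma adjusted p under 0.05. The filled symbols of chaperones and isomerases lie mostly to the right. Those of XBP1 and ATF6 lie near 0, those of CREB3L2 to the right, and those of ERN1 are spread. Control library 2 (open squares) often lies at the edge of its group.

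Compared per length, the set spanned a wide range. On the RPKM scale, which divides reads by exon length and by the total of the library, HSP90B1 was highest in control libraries at 595 ± 23.2, followed by CANX at 340 ± 29.3, P4HB at 320 ± 31.5 and CALR at 262 ± 30.7. CANX and P4HB did not differ beyond their spread. HSPA5 followed at 176 ± 13.0 and SEC61A1 at 156 ± 5.32. The median gene stood at 31.7 RPKM, while ERN1 stood at 1.00 ± 0.327 and DERL3 was lowest at 0.360 ± 0.128 (SD, n = 3 each). After BRD8 siRNA CANX stood at 479 ± 26.4 RPKM, P4HB at 407 ± 23.4 and HSPA5 at 250 ± 6.21, with HSP90B1 at 575 ± 18.96 still above all of them.

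Of the 12 chaperones and co-chaperones, 6 rose and none fell, with a median log2 fold change of 0.33. Over all genes tested 10.1% rose and 8.93% fell. HSPA5, also called BiP, is the Hsp70 of the ER lumen and holds the stress sensors inactive when it is bound to them. HSPA5 stood at 24006, 26923 and 22808 normalized counts in control libraries 1 to 3 and at 34507, 36151 and 34383 in BRD8 libraries 1 to 3. The lowest BRD8 library exceeded the highest control library (log2 fold change 0.51, SE 0.0807, limma adjusted p = 0.00359). CANX, the membrane lectin that retains glycoproteins during folding, stood at 56984, 49651 and 55008 in control and at 75084, 73112 and 80693 in BRD8 libraries (log2 fold change 0.50, SE 0.0827, limma adjusted p = 0.00435). Both calls held when any 1 library was left out, with adjusted p no higher than 0.0261 for HSPA5 and 0.0297 for CANX.

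The other rises in this group were among partners of HSPA5. MANF, a small ER protein that binds HSPA5 and can be secreted, stood at 2395, 3199 and 2331 in control and 3525, 4124 and 3515 in BRD8 libraries (log2 fold change 0.51, SE 0.128, limma adjusted p = 0.0256). Control library 2 was well above the other 2 control libraries for this gene, and the groups still did not overlap. HYOU1, a large Hsp70 relative that exchanges nucleotide on HSPA5, stood at 5346, 5575 and 5136 in control and 7368, 6312 and 6285 in BRD8 libraries (log2 fold change 0.31, SE 0.0830, adjusted p = 0.0319). The J-domain co-chaperone DNAJC3 stood at 2207, 1765 and 1959 in control and 2468, 2426 and 2610.1 in BRD8 libraries (log2 fold change 0.34, adjusted p = 0.0325). DNAJB9, which brings misfolded clients and IRE1 to HSPA5, stood at 1219, 1165 and 1187 in control and 1355, 1467 and 1530.3 in BRD8 libraries (log2 fold change 0.28, adjusted p = 0.0340). For all 4 genes every BRD8 library exceeded every control library, as for 18.9% of all genes tested.

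These 4 calls were sensitive to omitting libraries, while the size of the difference changed less. Over the 6 leave-outs the log2 fold change ran from 0.24 to 0.35 for HYOU1, from 0.42 to 0.65 for MANF, from 0.24 to 0.33 for DNAJB9 and from 0.27 to 0.43 for DNAJC3. HYOU1 and MANF kept their call only without control library 2, and over the other 5 leave-outs the adjusted p ran from 0.0655 to 0.140 for HYOU1 and from 0.0577 to 0.110 for MANF. DNAJB9 held when control library 2 or BRD8 library 1 was omitted. Its adjusted p was 0.0704 and 0.127 on omitting control libraries 1 and 3, and 0.118 and 0.140 on omitting BRD8 libraries 2 and 3. DNAJC3 held on omitting control library 1 or 2, and had adjusted p = 0.116 on omitting control library 3 and 0.0793, 0.0790 and 0.121 on omitting BRD8 libraries 1, 2 and 3. Exons of DNAJB9 overlap those of THAP5 on the opposite strand, which the library kit does not separate. THAP5 itself stood at 872 ± 97.9 and 776 ± 77.9 counts (log2 fold change -0.17, adjusted p = 0.344).

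The remaining chaperones did not pass the test. The J-domain protein DNAJB11, which presents clients to HSPA5, missed it narrowly, at 7989.8, 8197 and 7172 in control and 8967, 9899 and 9069.6 in BRD8 libraries (log2 fold change 0.26, adjusted p = 0.0515). CRELD2, a secreted ER stress protein, had a log2 fold change of 0.41 (SE 0.133, adjusted p = 0.0619). Both groups were apart for these 2 genes, and the authors' deposited table gives them adjusted p = 0.0284 and 0.0249. SDF2L1, an ER partner of J-domain proteins, stood at 505, 695 and 512 in control and 625, 978 and 711 in BRD8 libraries, so that control library 2 lay above the lowest BRD8 library (log2 fold change 0.42, SE 0.180, adjusted p = 0.138). CALR, the soluble lectin related to CANX, likewise overlapped through control library 2 (log2 fold change 0.25, SE 0.0991, adjusted p = 0.109).

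HSP90B1, the Hsp90 of the ER and the most abundant of the 33, stood at 58115, 64629 and 59892 in control and 57164, 61272.5 and 58497 in BRD8 libraries. Its log2 fold change was -0.04 with a 95% interval of -0.22 to 0.13, which lies below the interval of 0.33 to 0.70 for HSPA5. It overlaps the interval of 0.10 to 0.45 for PDIA3, a gene that rose. UGGT1, which returns incompletely folded glycoproteins to CANX and CALR, had a log2 fold change of -0.18 (95% interval -0.45 to 0.09, adjusted p = 0.342). UGGT1 was 7089 and 6562 counts in control libraries 1 and 3 but 5095 in control library 2, and 5101 to 5674 in BRD8 libraries.

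**Figure D3:**
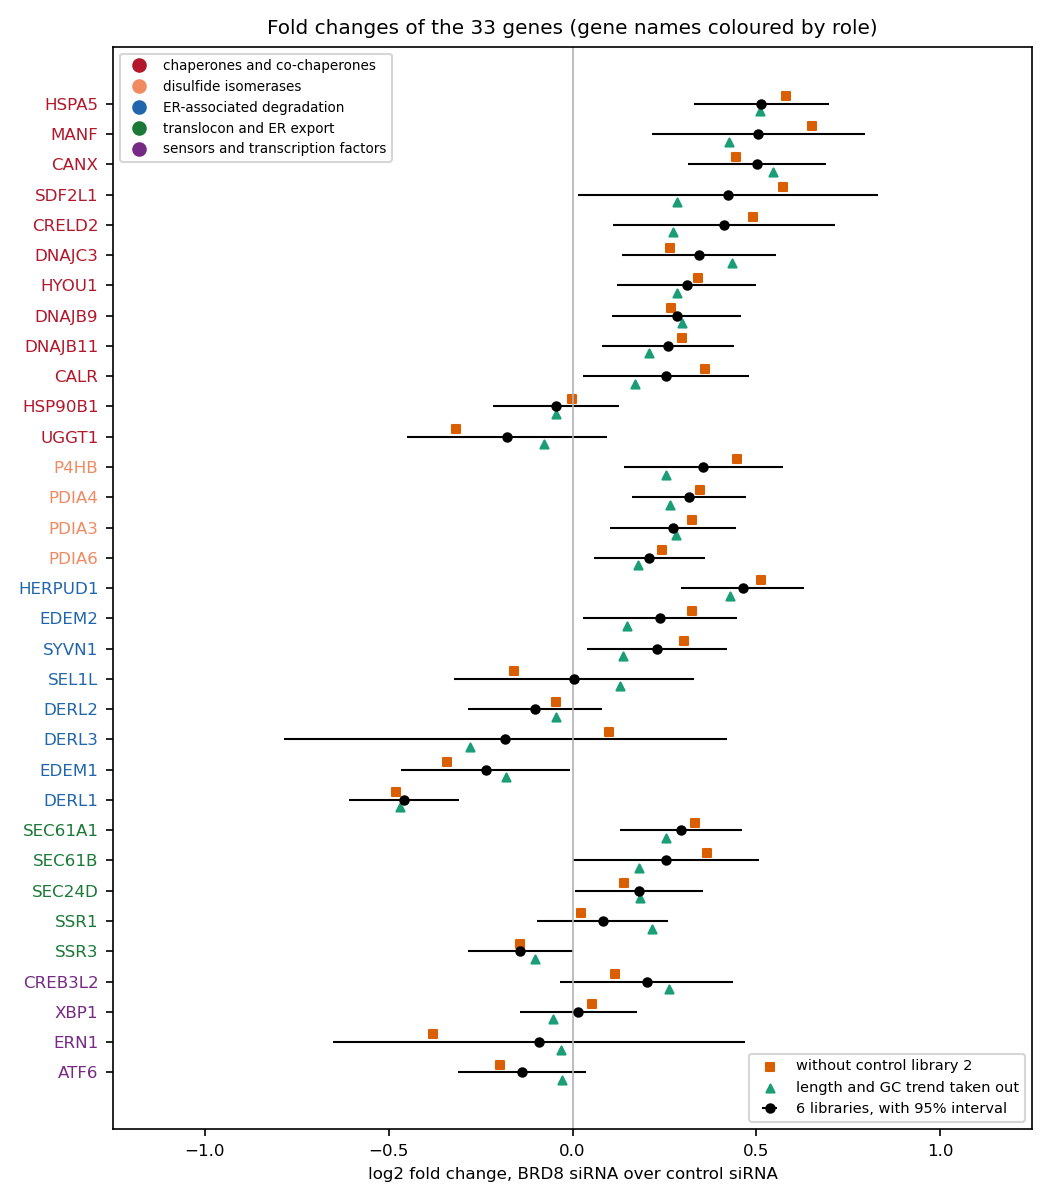
Log2 fold change of BRD8 over control siRNA for the 33 genes, with the 95% interval from limma on all 6 libraries (black), without control library 2 (squares) and after correction of each library for transcript length and GC content (triangles). HSPA5, CANX, HERPUD1 and DERL1 keep their direction and size in all 3, while the intervals of ERN1 and DERL3 are wide.

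Of the 4 disulfide isomerases, which form and reshuffle disulfide bonds in the ER, 3 rose and the fourth missed the threshold. The median log2 fold change was 0.30, and all 4 had groups that did not overlap. Over all genes tested 10.1% rose, and for 18.9% the BRD8 libraries lay wholly above control. PDIA4 stood at 12499, 13250.5 and 12419.8 in control and 15573, 16546 and 15442 in BRD8 libraries (log2 fold change 0.32, SE 0.0682, limma adjusted p = 0.0135). P4HB, the classic isomerase and a subunit of prolyl hydroxylase, stood at 27791, 33681 and 27814 in control and 36567, 40643.5 and 36747 in BRD8 libraries (log2 fold change 0.36, SE 0.0951, adjusted p = 0.0318). PDIA3, the isomerase that works with CANX and CALR on glycoproteins, stood at 8325, 9705 and 9149 in control and 10759, 11163 and 10865 in BRD8 libraries (log2 fold change 0.27, SE 0.0759, adjusted p = 0.0369). In each case control library 2 was the highest control, still below the lowest BRD8 library. PDIA6 had a log2 fold change of 0.21 (SE 0.0669, adjusted p = 0.0593, and 0.0339 in the authors' deposited table).

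PDIA4 lost its call when control library 3 (adjusted p = 0.0794) or BRD8 library 2 (0.0750) was omitted, with a log2 fold change of 0.29 to 0.35 over all 6 leave-outs. P4HB and PDIA3 kept theirs only without control library 2, with adjusted p from 0.0673 to 0.141 and from 0.0833 to 0.134 over the other 5 leave-outs. Their log2 fold changes ran from 0.31 to 0.45 and from 0.21 to 0.32. Exons of PDIA3 overlap those of ELL3 and CATSPER2P1 on the opposite strand. Those 2 genes stood at 85.5 and 35.6 counts in control libraries against 9060 ± 694 for PDIA3, and at 83.1 and 35.9 in BRD8 libraries.

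Of the 8 degradation genes, 1 rose (12.5%), 1 fell (12.5%) and 6 were not called, with a median log2 fold change of -0.05. These shares are near those over all genes tested. HERPUD1, a stress-induced scaffold of the ubiquitin ligase complex of the ER membrane, stood at 2241.5, 2492 and 2242 in control and 3114, 3271 and 3222 in BRD8 libraries (log2 fold change 0.46, SE 0.0735, limma adjusted p = 0.00369). DERL1, a membrane protein that helps to pull failed proteins back to the cytosol, stood at 5205, 4903 and 5054 in control and 3563, 3758 and 3711 in BRD8 libraries (log2 fold change -0.46, SE 0.0662, adjusted p = 0.00239). DERL1 was 27.2% lower and HERPUD1 37.7% higher on average, and neither pair of groups overlapped. Both calls held in each leave-out, with adjusted p no higher than 0.0283 for HERPUD1 and 0.0200 for DERL1. The exons of DERL1 overlap an antisense gene, AC104316.1, as those of HYOU1 and P4HB overlap AP003392.3 and AC145207.3, and reads of these cannot be told apart from those of their partners. Among genes not called, DNAJB11 overlaps TBCCD1, PDIA6 overlaps ATP6V1C2, SYVN1 overlaps MRPL49 and DERL3 overlaps SMARCB1, all on the opposite strand.

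The relatives of DERL1 gave no call. DERL2 had a log2 fold change of -0.10 (95% interval -0.28 to 0.08), above the interval of DERL1, which ran from -0.61 to -0.31. DERL3 was barely present, at 34.1, 61.5 and 33.5 counts in control and 42.6, 32.2 and 34.8 in BRD8 libraries, and control library 2 alone set its control mean apart. Its interval, -0.78 to 0.42, does not settle a direction.

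The core ligase was not called. SYVN1, also called HRD1, had a log2 fold change of 0.23 (adjusted p = 0.0910), with no overlap between groups. Its adaptor SEL1L stood at 7442, 5013 and 6625 in control and 6211, 5662 and 7074 in BRD8 libraries. All BRD8 values lay within the control range, and the log2 fold change of 0.00 had a 95% interval of -0.32 to 0.33. Among the mannosidase-like proteins that mark glycoproteins for disposal, EDEM1 was at -0.24 and EDEM2 at 0.24 (adjusted p = 0.142 and 0.109).

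In the translocon and export group 1 of 5 genes rose and none fell, where 10.1% and 8.93% of all genes tested did. SEC61A1, the pore subunit of the channel, stood at 21221, 23452 and 22089 in control and 28652, 26777 and 26495 in BRD8 libraries (log2 fold change 0.30, SE 0.0728, limma adjusted p = 0.0233). It kept its call only without control library 2, and the adjusted p lay between 0.0702 and 0.105 over the other 5 leave-outs, at a log2 fold change of 0.26 to 0.33 over all 6. Its exons overlap those of RUVBL1 on the opposite strand, a gene of the TIP60 complex that fell from 5636 ± 458 to 4605 ± 157 counts (log2 fold change -0.29, adjusted p = 0.0344). RUVBL1 moved in the other direction and at a lower level, and its part in the SEC61A1 count was not tested. SEC61B, the small subunit of the same channel, stood at 1453, 1867 and 1509 in control and 1825, 2107 and 1808 in BRD8 libraries, and control library 2 overlapped the BRD8 group (log2 fold change 0.25, adjusted p = 0.148).

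The signal sequence receptor subunits, which sit beside the channel, were not called. SSR3 stood at 21285, 21016 and 20916 in control and 18938, 19202 and 19165 in BRD8 libraries. Its groups were apart and tight, at a log2 fold change of only -0.14 (SE 0.0626, adjusted p = 0.152). SSR1 was at 0.08 (95% interval -0.10 to 0.26). SEC24D, a cargo adaptor of the COPII vesicles that leave the ER, was at 0.18 (95% interval 0.01 to 0.36, adjusted p = 0.138).

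None of the 4 sensors and transcription factors passed the test. XBP1, the factor made active by IRE1 splicing, stood at 6097, 6597 and 6142 in control and 6581, 6391 and 6073 in BRD8 libraries. Its groups overlapped, with a log2 fold change of 0.02 and a 95% interval of -0.14 to 0.17. ATF6, the membrane-bound factor released by cleavage, stood at 2950.4, 2568 and 2869 in control and 2551, 2487 and 2572 in BRD8 libraries. Control library 2 lay within the BRD8 range, and the log2 fold change was -0.14 (95% interval -0.31 to 0.04, adjusted p = 0.249).

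ERN1, the gene of IRE1 alpha, stood at 431, 226 and 393 in control and 360, 245 and 360 in BRD8 libraries. Replicate 2 was the low library in both groups, and the log2 fold change of -0.09 had a 95% interval of -0.65 to 0.47. CREB3L2, a related ER-bound factor that drives secretory pathway genes, stood at 2596, 2111 and 2453 in control and 2735, 2474 and 3022 in BRD8 libraries (log2 fold change 0.20, 95% interval -0.03 to 0.44, adjusted p = 0.216). The intervals of XBP1 and ATF6 lie below that of HSPA5, while those of ERN1 and CREB3L2 overlap it.

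The 10 genes with an ERSE or ERSE-II match had a median log2 fold change of 0.36, and the 19 with a window and neither had 0.23. Of the 10, 4 rose, and of the 19, 6 rose, where 10.1% of all genes tested rose. The difference between the 10 and the 19 was not tested. HSP90B1 carries 2 exact ERSE matches and XBP1 carries 1, and both had intervals around 0. Of the 3 genes with ERSE-II, HYOU1 and HERPUD1 rose, and SDF2L1 was not called (adjusted p = 0.138). Of the 2 genes with UPRE, HYOU1 rose, and SSR3 was not called at a log2 fold change of -0.14.

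Outside the 33 genes the wider pathway showed calls in both directions, mostly at shares near those of all genes tested (10.1% higher and 8.93% lower). Of 25 other ER chaperones and glycan trimming enzymes, 1 rose and 1 fell, with a median of 0.06. FKBP14, a prolyl isomerase of the ER, rose from 1095, 904 and 1082 to 1995, 1808 and 1935 counts (log2 fold change 0.90, SE 0.0946, limma adjusted p = 6.3e-04), which is a larger difference than that of any of the 33. RCN2, a calcium-binding ER protein, fell by 0.25 on the log2 scale (adjusted p = 0.0278), with adjusted p from 0.0643 to 0.127 in every leave-out except that of control library 2, and 0.186 after correction for length and GC content. PPIC, a cyclophilin, had a log2 fold change of 0.23 (adjusted p = 0.0726).

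Among 22 other disulfide isomerases and oxidases, 6 rose (27.3%) and 3 fell (13.6%). AGR2, the isomerase of mucin-producing cells, stood at 16174, 21770 and 18287 in control and 41231, 40075.5 and 37823 in BRD8 libraries, a log2 fold change of 1.09. QSOX1, a sulfhydryl oxidase of the secretory pathway, went from 16603, 17133 and 16893 to 23147, 22755 and 22566 (log2 fold change 0.44, SE 0.0633, limma adjusted p = 0.00244). ERO1B, which reoxidizes disulfide isomerases, fell from 203, 191 and 196 to 102, 116 and 110.2 counts (log2 fold change -0.84, SE 0.113, adjusted p = 0.00172). Each of these 3 calls held without any 1 library.

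In the wider degradation list 2 of 23 genes rose and 1 fell. EDEM3, a mannosidase relative of EDEM1 and EDEM2, rose by 0.64 on the log2 scale (adjusted p = 0.0168), and lost its call without BRD8 library 1 (0.0541) and BRD8 library 3 (0.0707). UBE2J1, the ubiquitin-conjugating enzyme of this pathway, fell by 0.28 (adjusted p = 0.0393) and UBE2G2 rose by 0.28 (0.0456). Neither call held in any leave-out except that of control library 2, with adjusted p from 0.0954 to 0.137 and from 0.0564 to 0.171, and that of UBE2G2 also ended at a mean of at least 1 (0.0518).

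Of 30 other genes of the translocon, signal peptidase and oligosaccharyltransferase, 3 rose and 3 fell. SRP72, a subunit of the signal recognition particle, fell from 3476, 3339 and 3598 to 2281, 2342 and 2384 counts (log2 fold change -0.57, SE 0.0678, limma adjusted p = 0.00106). SEC61A2, the less abundant paralog of SEC61A1, fell from 247, 211 and 263 to 140.3, 136 and 149.8 counts (log2 fold change -0.75, adjusted p = 0.00402), opposite in sign to SEC61A1. The signal peptidase subunit SEC11C rose by 0.44 on the log2 scale (adjusted p = 0.00724). None of these 3 calls was lost in a leave-out. SEC61A2 has exons that overlap NUDT5 on the other strand, as KDELR3 does with DDX17, TRAP1 with DNASE1, ERN2 with PLK1 and TNFRSF10B with RHOBTB2, and reads of such pairs cannot be told apart.

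Of 25 genes of COPII export and retrieval, 3 rose and 2 fell. MIA3, the cargo receptor for collagen, fell by 0.57 on the log2 scale (adjusted p = 0.00348), and KDELR3, a receptor that returns escaped chaperones to the ER, rose by 0.50 (0.00435). SEC23A, a coat subunit that pairs with SEC24D, rose by 0.55 (adjusted p = 0.0112), and this call ended without BRD8 library 3 (0.0535).

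The third sensor, EIF2AK3 or PERK, was among 17 further sensors, proteases and ER-bound factors, of which 2 rose and none fell. It stood at 917, 746 and 900.4 in control and 1153, 1183 and 1314 in BRD8 libraries (log2 fold change 0.51, SE 0.102, limma adjusted p = 0.00971), and the call held in each leave-out. CREB3L1 rose from 11.8 ± 2.10 to 22.6 ± 2.03 counts (adjusted p = 0.0417) at a level of few reads. Its call was lost in every leave-out, at adjusted p from 0.0587 to 0.135, and in DESeq2 (0.113), the authors' deposited table (0.137) and quantile normalization (0.0647). ERN2, the epithelial relative of ERN1, had a log2 fold change of 0.45 (adjusted p = 0.0781).

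Downstream of PERK, in the list of 15 genes of that arm and of stress-induced apoptosis, 2 rose and 1 fell, with a median of 0.05. CEBPB rose by 0.50 (adjusted p = 0.0128). Its call was lost on omitting control library 3 (adjusted p = 0.0624, log2 fold change 0.42) or BRD8 library 2 (0.0509, 0.41). NUPR1 rose by 0.88 at a mean of 42.6 ± 11.3 control counts (adjusted p = 0.0456), and the death receptor gene TNFRSF10B fell by 0.24 (0.0383). Both kept their call only without control library 2 among the leave-outs, with adjusted p from 0.0722 to 0.156 and from 0.0687 to 0.148 in the others, and NUPR1 also lost it under quantile normalization (0.0595).

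Of 30 chaperones of the cytosol and mitochondria, 1 rose (3.33%), 7 fell (23.3%) and 22 were not called, with a median of -0.11, and summed they took 16841 ± 371 CPM in control and 16012 ± 216 in BRD8 libraries (SD, n = 3 each). TRAP1, the mitochondrial Hsp90, fell by 0.44 on the log2 scale (adjusted p = 0.00983), HSPA4, an Hsp110 relative, by 0.33 (0.0105) and HSPA14 by 0.34 (0.0111). Without control library 3 these stood at adjusted p = 0.0544, 0.0702 and 0.0688. TRAP1 also lost its call without BRD8 library 3 (0.0511), and HSPA4 and HSPA14 without BRD8 library 2 (0.0582 and 0.0598). The gene that rose, named here after its values were seen, was HSPB1, a small heat shock protein, with a log2 fold change of 0.74 (SE 0.168, adjusted p = 0.0171). HSPB1 lost its call on omitting control library 1 (0.0512) or 3 (0.0746) or BRD8 library 2 (0.0524) or 3 (0.0644), at log2 fold changes of 0.58 to 0.91 over the 6 leave-outs. The difference between this list and the ER genes was not tested.

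**Figure D4:**
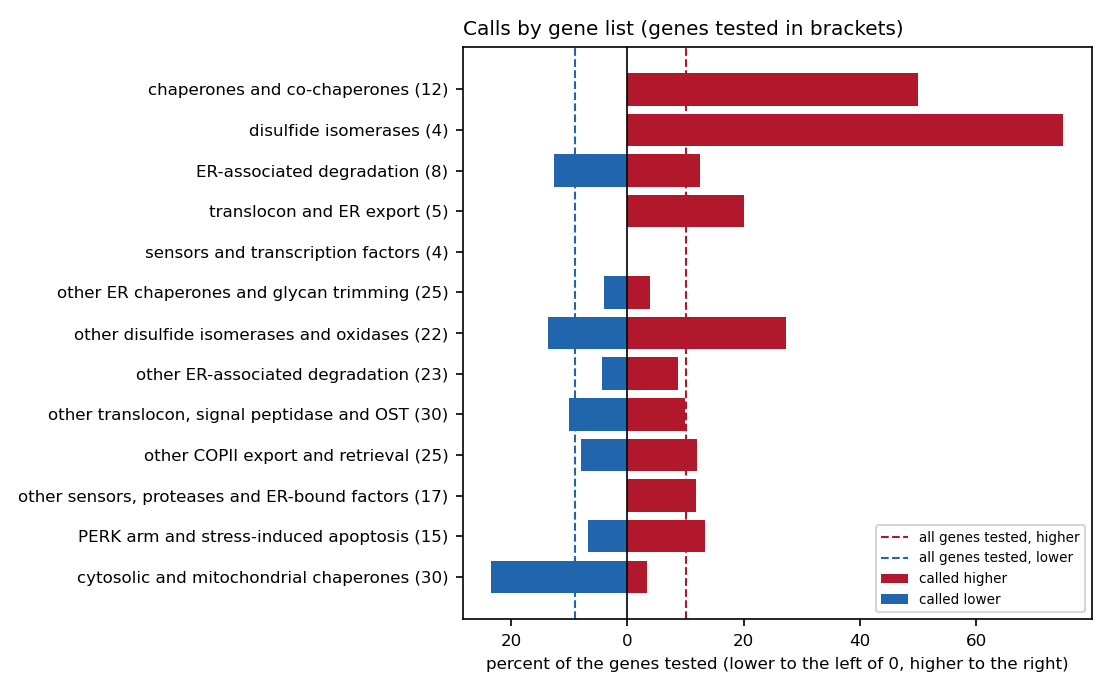
Percent of tested genes called higher (right of 0) and lower (left of 0) at limma adjusted p under 0.05 in each list, with the number of genes tested in brackets; the upper 5 bars are the roles of the 33 genes and dashed lines give the shares over all genes tested, 10.1% and 8.93%. Isomerases (75%) and chaperones (50%) among the 33 genes lie furthest beyond the right dashed line, while the other ER chaperones and glycan trimming enzymes reach 4%. The cytosolic and mitochondrial chaperones lie furthest beyond the left line (23.3%). Several other lists also pass a line.

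Control library 2 stood apart from its group, and among the 33 genes its position followed transcript length. Of the 21 genes with a longest transcript of at most 4000 bases, control library 2 was the highest control for 18, and of the 12 longer ones it was the lowest for 10. The median log2 ratio of control library 2 to the mean of the other 2 controls was 0.15 for the shorter and -0.21 for the longer genes, and -0.34 for the 6 genes over 7000 bases, of which none rose. The 4000 and 7000 base limits were set after the values were seen. The genes called higher had a median transcript length of 3635 bases, against 3250 for all genes tested.

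Without control library 2, 19 of the 33 rose and 4 fell, while 15.9% of all genes rose and 18.1% fell. The 11 genes called with all libraries were all among the 19. The 8 added were CALR (adjusted p = 0.00198), SYVN1 (0.00634), EDEM2 (0.00565), SEC61B (0.00659), DNAJB11 (0.0101), CRELD2 (0.0111), PDIA6 (0.0113) and SDF2L1 (0.0134). The falls added to DERL1 were EDEM1 (0.00417), UGGT1 (0.00667) and ATF6 (0.0395). After the dependence on transcript length and GC content was removed library by library, 21 rose and 2 fell, where 16.0% and 19.3% of all genes did, and CREB3L2 (log2 fold change 0.26, adjusted p = 0.00512), SSR1 (0.22, 0.0285) and SEC24D (0.18, 0.0204) were among the genes added. Under that correction the median log2 fold change of the 33 was 0.18, against -0.03 over all genes. For members of at most 4000 bases the median went from 0.26 to 0.21, and for longer ones from 0.04 to 0.16. Fewer genes were called in the other leave-outs, both among the 33 and over all genes. Omitting control library 1 left 5 rises, where 6.94% of all genes rose, and omitting control library 3 left 3 (5.42% of all genes). Omitting BRD8 libraries 1, 2 and 3 left 6, 3 and 4 rises, where 7.44%, 5.82% and 5.67% of all genes rose. In edgeR on the recovered reads 12 rose and 1 fell, where 10.7% and 8.66% of all genes did, and the authors' deposited table has 14 that rose and 1 that fell, where 10.4% and 10.1% of 15811 genes did.

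**Figure D5:**
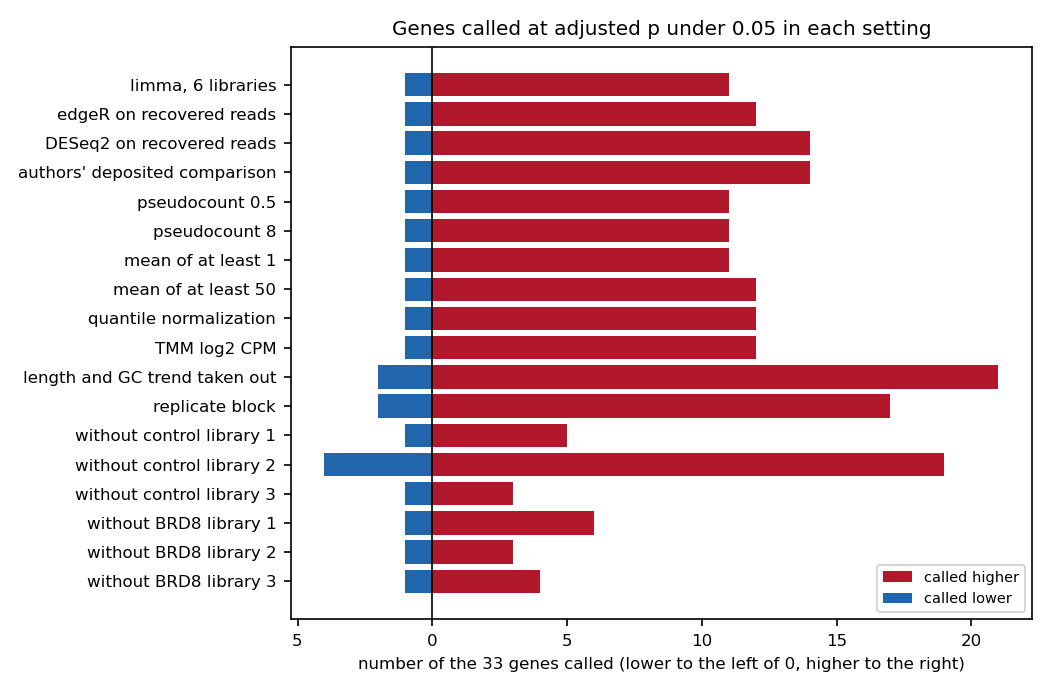
Number of the 33 genes called higher (right of 0) and lower (left of 0) at adjusted p under 0.05 in the test on 6 libraries and in each alternative setting. The count of higher genes runs from 3 without control library 3 or BRD8 library 2 to 21 after the length and GC correction.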

How the data were processed

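Single-end RNA-seq of 6 Calu3 libraries (TruSeq RNA v2, per the labels' protocols) was analysed from 1 deposited table. Tools named in the submitters' processing notes are DESeq2 1.22.1, featureCounts 1.6.3 and STAR 2.6, with build hg19. Strand setting and annotation were not given in the sources used here. Its values are a signal that the authors made by dividing counts by 1 size factor per library. Whole reads were recovered, with 100% of values whole within 0.01. The deposited comparison holds a log2 fold change with its log2 standard error, a test score and p-values. For 4756 genes with no reads it holds a spreadsheet error.

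limma 3.58.1 (R 4.3.3), with a variance trend, was run on log2(normalized count + 1) for the 15354 genes whose mean reached 10. This scale understates fold changes of low genes. P-values were adjusted by Benjamini and Hochberg over all genes, at 0.05. edgeR 4.0.16 and DESeq2 1.42.0 on recovered reads, other pseudocounts, filters and scalings, a length and GC correction (GENCODE 29, 14768 genes) and leave-outs were alternatives. Members, lists and tests were chosen with earlier results of these data known. Named by rule were BRD8, all 33 genes, and in each other list the 3 genes with the smallest adjusted p. RPKM used recovered reads and GENCODE exon length. Of the 33 genes, 14 have exons that overlap another gene. Replicates differed by more than counting noise. On simulated counts for this comparison (15354 genes) the limma test found 76% of the 1.5-fold changes and 94% of the 2-fold ones. No simulated library stood apart as control library 2 did. The largest rise among the 33 genes was 1.42-fold, so these shares do not give the sensitivity for them. Protein sequences were not analysed here, and 1 listed ligase gene was not matched.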

Additional observations from a re-analysis of the deposited data

How the results depend on the processing

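DERL1, HSPA5, CANX and HERPUD1 kept direction and call in all 17 alternatives, and the 11 rises held in every alternative other than leaving out a library. BRD8 stayed between -1.38 and -1.24. The rises among the 33 genes numbered 21 after the length and GC correction and 3 to 19 when 1 library was left out. The falls numbered 2 after the correction and 1 to 4 over the leave-outs. Over all genes the correction gave 2369 higher and 2844 lower, and leave-outs gave 832 to 2445 higher and 528 to 2784 lower. Other tests and scalings gave 11 to 14 rises and 1 fall. With the replicate number as a block, 17 rose and 2 fell, 1939 and 1962 of all genes did so, and CREB3L1 lost its call (adjusted p = 0.0628). Whether the numbers mark pairs of libraries is not settled here. Same-numbered libraries deviated together at correlations of -0.0845, 0.335 and 0.155. Both libraries numbered 1 and BRD8 library 3 correlated better with another number. Deviations from the mean of so few libraries depend on one another, so these correlations cannot decide whether libraries were paired.

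Signs near 0 were not stable. SEL1L stood at -0.0072 in DESeq2, -0.0102 in the authors' deposited table, and from -0.16 (control library 2 omitted) to 0.13 over the leave-outs, with -0.08 on omitting BRD8 library 3. DERL3 ran from -0.33 to 0.10, the latter on omitting control library 2. ERN1 ran from -0.38 to 0.0935 (BRD8 library 2 omitted), and was also above 0 on omitting control library 1 (0.0861) or 3 (0.0198). XBP1 stood at -0.0518 after the length and GC correction and ran from -0.0103 (BRD8 library 1 omitted) to 0.0521, with -0.0047 on omitting control library 1. FICD stood at -0.0076 with quantile normalization, at -0.0401 on omitting control library 2, and ran from -0.075 (BRD8 library 1 omitted) to 0.179. The cause was not tested.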

Other observations

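Outside the 33 genes, 9 tested genes held an exact ERSE match, named here after their values were seen. Over all 16 tested genes with an ERSE, 5 rose and 2 fell, where 10.1% and 8.93% of all genes tested did. EIF2A, a translation initiation factor, fell from 14100.5 ± 386 to 9919.7 ± 204 normalized counts (SD, n = 3 each; log2 fold change -0.51, limma adjusted p = 0.00141), and ERO1B was the other fall. Exons of EIF2A overlap those of SERP1, an ER membrane protein, which also holds a match and was not called (log2 fold change 0.15, adjusted p = 0.212). ALG12, a mannosyltransferase of N-glycan assembly, rose by 0.31 (adjusted p = 0.0435), a call that held in no leave-out except that of control library 2 (adjusted p from 0.0840 to 0.174 in the others). Also higher were the actin-associated gene SYNPO at 0.95 (adjusted p = 0.00369) and TRIM5 at 0.44 (0.00535). FICD, the enzyme that modifies HSPA5, stood at 100.02 ± 13.7 and 106 ± 20.8 counts, with a log2 fold change of 0.08 (adjusted p = 0.796). Among 11 other tested genes with an ERSE-II match, none was called higher and 1, SHCBP1, fell by 0.56 on the log2 scale (limma adjusted p = 0.00583).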
